A study of Homo sapiens with 2 samples.

Results

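Long terminal repeats (LTRs) of the ERV1 family of endogenous retroviruses lay under the centres of 1104 of the 21440 mTOR peaks in MDA-MB-231 cells, 5.15% (exact Clopper-Pearson 95% interval 4.86 to 5.45%). These peaks were taken from the deposited annotation of peak centres, as every peak whose repeat class was LTR, whose family was ERV1 and whose repeat name did not end in -int, the ending that marks the internal part of a provirus. Neither score nor width entered that choice. MDA-MB-231 is an established line of triple-negative breast cancer cells of human origin, kept here in medium with 10% serum. The kinase mTOR adjusts cell growth to the supply of nutrients and growth factors. There was 1 library from chromatin immunoprecipitated with an mTOR antibody (ChIP-seq) and 1 library of input chromatin from the same line, used as the reference for peak calling. Cells of both libraries were otherwise described alike, and the only table analysed here is the annotated peak list of the mTOR ChIP library on the hg38 build.

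An endogenous retrovirus is the remnant of a virus that once entered the germ line, and its coding part lies between a pair of LTRs. An LTR holds the promoter, the enhancer and the polyadenylation signal of the virus, and recombination between the pair often leaves a solitary LTR behind. ERV1 comprises families related to gammaretroviruses, among them HERV-H with LTR7, HERV9 with LTR12, HERV-E with LTR2, HERV3 with LTR4 and HERVIP10 with LTR10. Some of these LTRs act as promoters or enhancers of human genes. LTR7 is known for its activity in pluripotent stem cells, LTR12 for germ-line and inducible transcripts, LTR10 for p53 and AP-1 binding, and MER41 for interferon-responsive enhancers.

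Of the 1104 peaks, 3 overlapped a promoter window of the RefSeq gene set, 250 bases before to 50 bases after a start site on GRCh38.p14, the assembly of hg38 at a later patch. Their windows are shown because they are the places where an ERV1 LTR peak met an annotated start, 5′ to 3′ on the strand of the gene, with matches to the searched motifs in capitals.
ZNF562: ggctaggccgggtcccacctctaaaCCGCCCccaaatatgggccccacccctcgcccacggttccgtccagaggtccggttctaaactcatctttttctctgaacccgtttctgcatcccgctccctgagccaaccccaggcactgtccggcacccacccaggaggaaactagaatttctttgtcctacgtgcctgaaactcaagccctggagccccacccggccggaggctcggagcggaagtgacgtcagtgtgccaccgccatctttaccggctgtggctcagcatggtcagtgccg
LOC124901737: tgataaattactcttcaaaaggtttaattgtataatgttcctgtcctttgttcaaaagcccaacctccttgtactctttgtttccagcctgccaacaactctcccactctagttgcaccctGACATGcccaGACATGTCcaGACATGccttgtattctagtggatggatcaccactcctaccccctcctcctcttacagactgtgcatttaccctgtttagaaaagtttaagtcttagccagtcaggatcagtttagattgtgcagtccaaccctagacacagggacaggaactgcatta
LOC124901660: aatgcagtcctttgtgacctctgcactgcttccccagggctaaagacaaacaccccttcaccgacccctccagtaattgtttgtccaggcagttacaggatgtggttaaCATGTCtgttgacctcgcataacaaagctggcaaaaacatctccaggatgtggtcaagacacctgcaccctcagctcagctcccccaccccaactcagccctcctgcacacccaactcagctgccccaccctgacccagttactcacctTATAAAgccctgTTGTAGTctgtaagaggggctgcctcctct
The motifs were CCAAT (NF-Y), TATAAA (the TATA box), GGGCGG (the Sp1 GC box), ACTACAA (the core of the element bound by ZNF143 and RONIN), TGANTCA (AP-1), CACGTG (the E-box), CATGTC (part of the element bound by p53) and TTCCGG (ETS), on both strands. They were found in 34.6%, 11.5%, 45.0%, 2.77%, 7.71%, 7.26%, 7.96% and 17.2% of the 35116 RefSeq promoter windows, in that order.

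The ZNF562 window, chr19:9675051-9675350 on the minus strand, lay whole inside an LTR10F peak with a score of 823. The LTR10F label is that of the peak centre, which lay outside the window. The window itself is therefore not shown to be LTR sequence. ZNF562 encodes a zinc finger protein. The window held GGGCGG once, on the strand opposite to the gene, 225 bases upstream of the start, and none of the other motifs.

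The window of LOC124901737, a long non-coding RNA gene (chr7:121511145-121511444, minus strand), shared 87 bases with an LTR10B2 peak of score 78. The centre of that peak also lay outside the window. The window held CATGTC 4 times, with first bases from 129 to 109 bases upstream of the start. Among the 4 matches, 1 pair on opposite strands overlapped each other. Only 5 of all 35116 windows (0.0142%) held 4 or more. All 4 matches lay past the end of the peak, by 67 to 87 bases. The deposited annotation named FAM3C, 114682 bp away, as the nearest gene of this peak.

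The third window, of the long non-coding RNA gene LOC124901660 (chr7:65475834-65476133, plus strand), contained the centre of an LTR21B peak with a score of 36. Inside that peak it held ACTACAA on the strand opposite to the gene, beginning 20 bases past the start, TATAAA beginning 8 bases past the start, and CATGTC beginning 141 bases upstream. A match of these few letters is a description of the window, not a binding site.

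ERV1 LTR peaks had a higher median score, and more of them were among the strongest peaks, than the other peaks in repeats. The deposited score ranks peaks within this list, on a scale no source used here states, and it ran from 13 to 3046 in ERV1 LTRs. The median was 78 (binomial 95% interval of the median 77 to 87) with quartiles of 45 and 158, against a median of 61 (61 to 61) with quartiles of 40 and 100 in the other 12709 repeat-labelled peaks. Of the 1104 peaks, 225 or 20.4% (18.0 to 22.9%) were among the top-scoring 2144, the peaks with a score of at least 200. That is against 10.0% of all peaks by construction, 9.62% of intron and intergenic peaks, 9.73% of all repeat-labelled peaks and 8.80% (8.32 to 9.31%) of the repeat-labelled peaks outside ERV1 LTRs. ERV1 LTRs made up 10.5% of the top-scoring 2144 and 15 of the 100 highest peaks. These intervals cover counting error within 1 library, so no test between sets of peaks was made.

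The other retroviral repeats differed from ERV1 LTRs in both directions. Internal ERV1 sequences scored higher, with 35.5% (31.3 to 39.9%) of 504 peaks in the top-scoring set and a median of 126. LTRs of the ERVK, ERVL and ERVL-MaLR families had 10.4%, 8.29% and 8.12% of 250, 193 and 800 peaks there, with medians of 75, 68 and 64. The upper ends of their intervals, 14.9%, 13.1% and 10.2%, lay below the lower end for ERV1 LTRs. Thus the 2 parts of the ERV1 provirus had higher shares of high scores than the LTRs of the other 3 retroviral families. Internal sequences of those 3 families were not compared here, so high scores are not shown to be particular to ERV1.

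**Figure D1:**
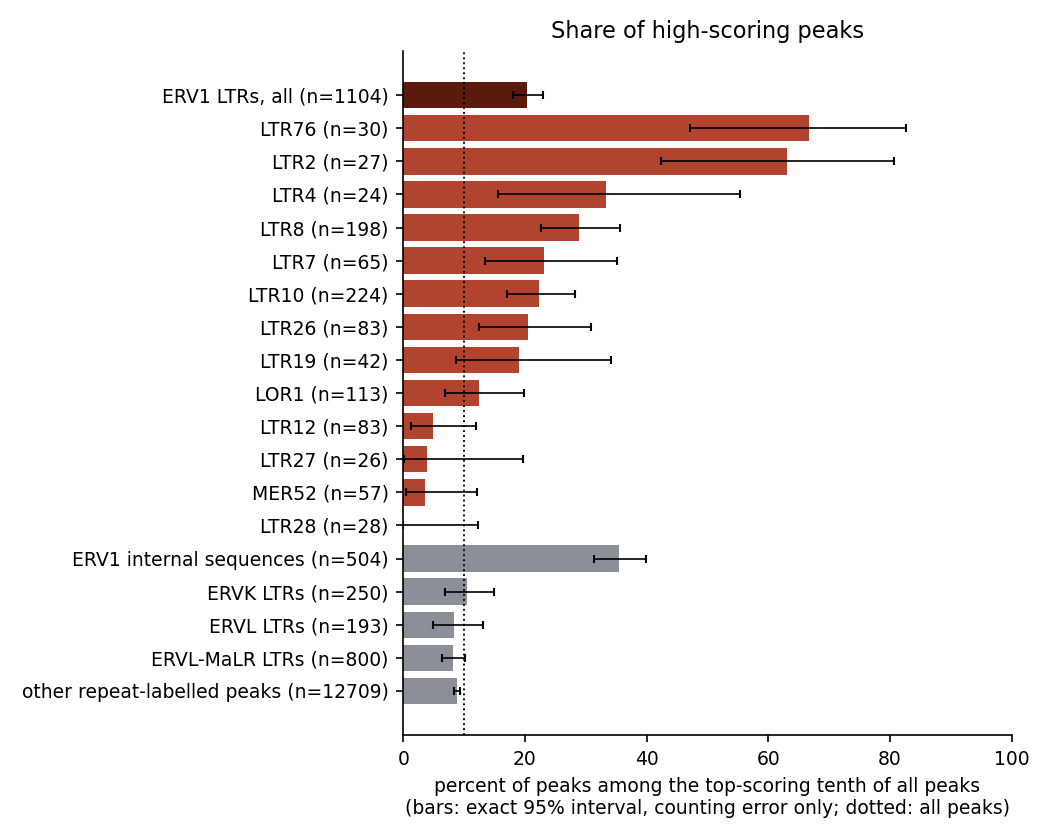
Percent of peaks that belong to the top-scoring 2144 of all 21440 peaks, for all ERV1 LTRs, for the 13 LTR groups with 20 or more peaks and, in grey, for other repeats; whiskers are exact 95% intervals for counting error, and the dotted line is the 10.0% of all peaks. LTR76 and LTR2 stand highest at 66.7% and 63.0%, and LTR28 has none.

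The 1104 peaks carried 93 LTR names, which fell into 44 groups when each name was read up to its first number. Just 13 groups had 20 or more peaks, and they held 1000 of the 1104. LTR10 led with 224 peaks or 20.3% (18.0 to 22.8%), followed by LTR8 with 198, LOR1 with 113, LTR12 and LTR26 with 83 each and LTR7 with 65. The most frequent single name was LTR8B with 99 peaks, while 41 names occurred once. How many copies of each LTR the genome holds was not used here, so these counts are not enrichments.

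LTR76 and LTR2 had the highest scores of the 13 groups. The 30 LTR76 peaks ran from 45 to 2415 with a median of 334 (179 to 567), and 20 of them were in the top-scoring set. The 27 LTR2 peaks ran from 19 to 3046 with a median of 321 (168 to 548), and 17 were in that set. LTR4 came next, with 24 peaks from 48 to 1253, a median of 127.5 (71 to 368) and 8 in that set. The intervals of LTR76 and LTR2 overlapped almost whole, and both overlapped that of LTR4. Together these 3 groups held 81 peaks, of which 45 or 55.6% were in the top-scoring set, against 17.6% of the other 1023 ERV1 LTR peaks. Most of the high-scoring ERV1 LTR peaks thus lay in other groups, since LTR8 alone gave 57 and LTR10 gave 50.

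**Figure D2:**
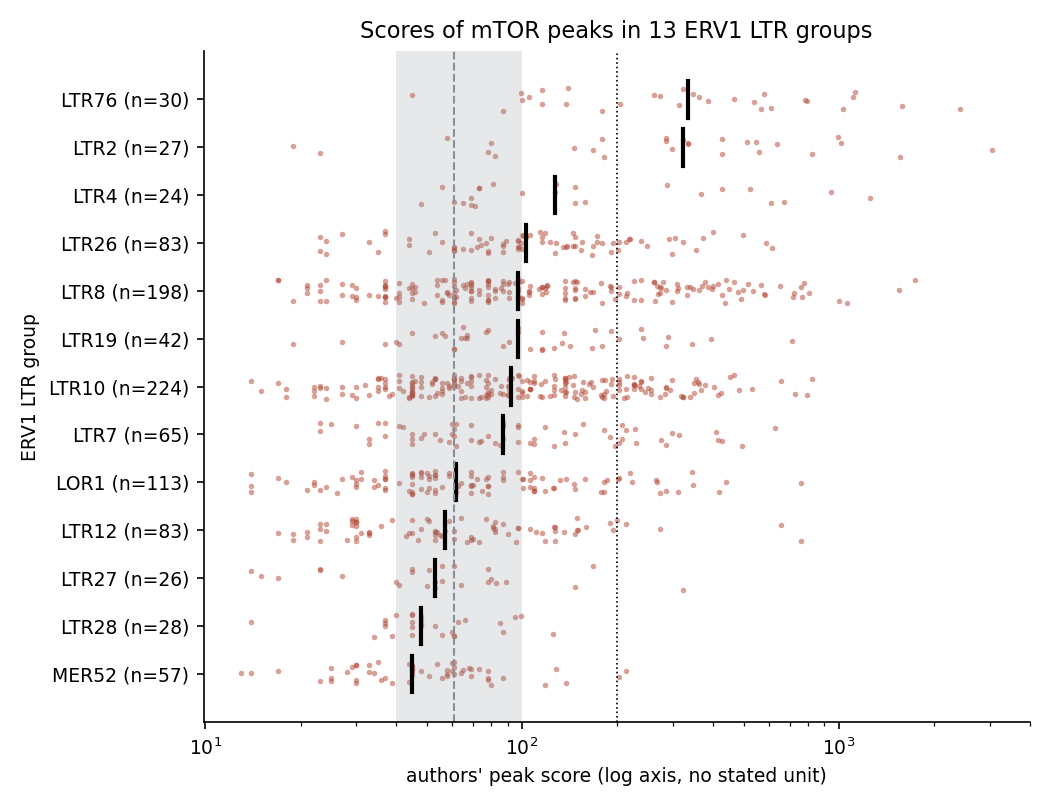
Authors' peak score on a log axis for each peak (points) in the 13 ERV1 LTR groups with 20 or more peaks, with black bars for the group medians; the grey band and dashed line give the quartiles, 40 and 100, and the median, 61, of other repeat-labelled peaks, and the dotted line marks a score of 200. LTR76 and LTR2 have medians of 334 and 321, and MER52 has 45.

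The middle of the order was close. LTR26, LTR8, LTR19, LTR10 and LTR7 had medians of 103, 97, 97, 92 and 87, with overlapping intervals, and from 8 of 42 (LTR19) to 57 of 198 (LTR8) of their peaks in the top-scoring set. LOR1 and LTR12 had medians of 62 and 57, LTR27 53, LTR28 48 and MER52 45. In the top-scoring set were 14 of 113 LOR1 peaks (12.4%, 6.94 to 19.9%), 4 of 83 in LTR12 (4.82%, 1.33 to 11.9%), 2 of 57 in MER52 (3.51%, 0.428 to 12.1%), 1 of 26 in LTR27 and 0 of 28 in LTR28, where the exact interval reaches 12.3%. The intervals of all 5 groups include the 10.0% of all peaks and the 8.80% of the other repeat-labelled peaks. The 104 peaks of the 31 smaller groups had a median of 61.

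The intervals of the subfamily medians overlapped within LTR8, LTR10, LTR7 and LOR1 for the names given here. The LTR8, LTR8A and LTR8B peaks, 61, 38 and 99 in number, had medians of 97, 78 and 106. Within LTR10, the 8 names included LTR10A with 52 peaks and a median of 75.5, LTR10E with 41 and 109, LTR10B1 with 32 and 77, LTR10C with 29 and 116, LTR10G with 23 and 100, and LTR10F with 23 and 80. In the top-scoring set were 1 LTR10G peak (0.110 to 21.9% of its peaks), 10 of LTR10C (17.9 to 54.3%) and 13 of LTR10E, and the first 2 intervals overlapped. LTR12C, the name of 70 of the 83 LTR12 peaks, had a median of 54. LTR7C had 44 of the 65 LTR7 peaks and 13 of the 15 in the top-scoring set, with a median of 92, and the 13 peaks named LTR7 had a median of 97. LOR1a and LOR1b had 58 and 55 peaks with medians of 49 and 70.

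Peaks of ERV1 LTRs were also wide, and score and width went together. Their median width was 456 bp (440 to 475), against 378 bp (375 to 381) in the other repeat-labelled peaks. Internal ERV1 sequences were wider still, with a median of 566 bp (524 to 605). ERVK, ERVL and ERVL-MaLR LTRs had medians of 413, 409 and 379 bp. LTR2 peaks were the widest of the 13 groups with a median of 896 bp (547 to 1731), followed by LTR76 with 645 bp and LTR4 with 582.5 bp, whereas LTR28 had 351.5 bp. Spearman's rho between score and width over the 1104 peaks was 0.70, and over the other repeat-labelled peaks 0.56. It was 0.78 in internal ERV1 sequences, and 0.61, 0.48 and 0.54 in ERVK, ERVL and ERVL-MaLR LTRs. Neither large width nor this link is therefore particular to ERV1 LTRs. The score and the width of a peak come from the same reads, so this describes the list only.

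Among peaks of like width, the widest class had the larger gap in score. Classes were set at the quartiles of width of all repeat-labelled peaks, and widths still vary within the widest. Of the peaks wider than 538 bp, 50.7% (45.8 to 55.7%) of 406 in ERV1 LTRs were in the top-scoring set, against 32.1% (30.5 to 33.8%) of 3045 in other repeats, with median scores of 202 and 128. From 384 to 538 bp the shares were 6.04% (3.62 to 9.38%) and 4.07% (3.41 to 4.82%), and the intervals overlapped. Among peaks of at most 383 bp, 1 of 400 in ERV1 LTRs and 13 of 6518 in other repeats were in the set. Within the widest class, LTR76, LTR2, LTR4 and LTR8 had medians of 552.5, 427, 327.5 and 273, over 20, 20, 14 and 79 peaks. LTR27 and MER52 both had 78, over only 7 and 15 peaks.

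**Figure D3:**
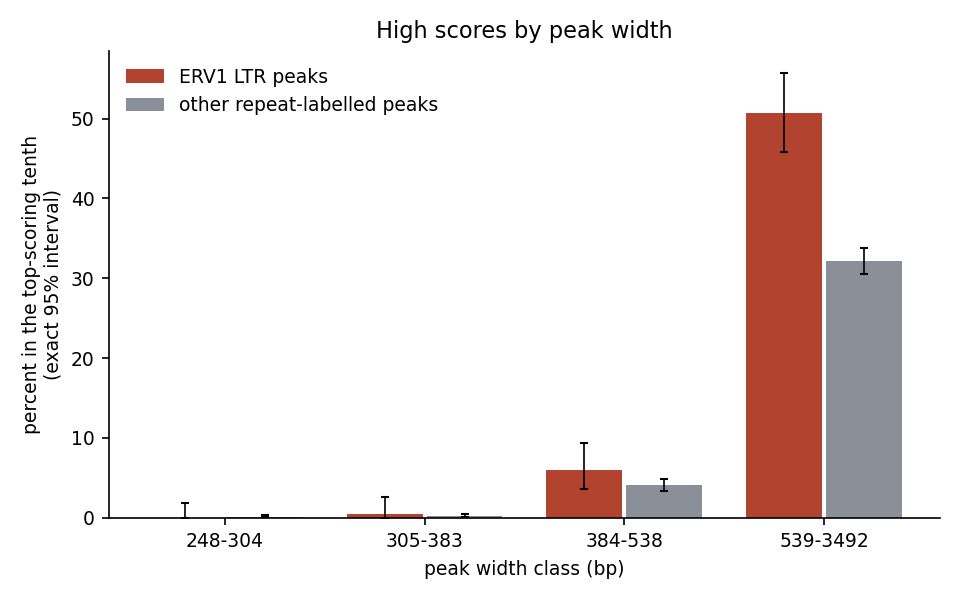
Percent of peaks in the top-scoring set by class of peak width in bp, for ERV1 LTR peaks (red) and other repeat-labelled peaks (grey), with exact 95% intervals. In the widest class the values are 50.7% and 32.1%, and in the narrowest nearly no peak of either kind is in the set.

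The 15 highest ERV1 LTR peaks came from 4 groups, with 5 in LTR76, 4 in LTR2, 4 in LTR8 and 2 in LTR4. They were 835 to 3492 bp wide, 10 lay in intergenic sequence and 5 in introns, and none was centred within 5 kb of a start. The strongest was an LTR2 on chromosome 10 (71944634 to 71948125) with a score of 3046, rank 4 of all peaks. It lay 18016 bp upstream of CHST3, which encodes a chondroitin sulfotransferase. An LTR76 on chromosome 14 (39055409 to 39056726) had 2415, in intron 13 of 19 of SEC23A, a subunit of the COPII vesicle coat. The next was an LTR8A with 1744 on chromosome 7 (75805713 to 75807933), 6983 bp downstream of the start of the chemokine gene CCL24.

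Further peaks of that set lay near genes of varied function. LTR76 had 1586 at 9582 bp upstream of PI4K2B, a phosphatidylinositol 4-kinase gene (chromosome 4, 25223443 to 25225459), and 1125 at 9566 bp upstream of ZWINT, which encodes a kinetochore protein (chromosome 10, 56370273 to 56371406). LTR76 peaks of 1105 and 1032 had LINC02147 and CLTCL1 as nearest genes. An LTR8A peak in intron 1 of ZNF341, a transcription factor gene, had 1544 (chromosome 20, 33736433 to 33737850). LTR8B peaks of 1059 and 1001 lay in intron 1 of F11-AS1 and 73789 bp from UQCRFS1, the Rieske protein gene of respiratory complex III.

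The remaining peaks of the set were in LTR4 and LTR2. LTR4 had 1253 in intron 2 of KLHL24, an adaptor of a ubiquitin ligase (chromosome 3, 183652904 to 183654246), and 947 beside the pseudogene LOC653712. LTR2 had 1559 in intron 1 of the pseudogene TPTE2P5, and 1018 at 147927 bp from TRIM33, which encodes a ubiquitin ligase of the SMAD pathway. An LTR2C had 994 at 8711 bp from MIR4771-1.

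The best peaks of the other groups were lower. LTR12C had 759 in intron 1 of THEM4, a mitochondrial thioesterase gene, LOR1b 762 in intron 1 of HECTD2-AS1, and LTR19A 710 in intron 1 of FARS2, the mitochondrial phenylalanyl-tRNA synthetase gene. LTR7C had 628 at 28054 bp upstream of EEA1, an early endosome tether. LTR26 had 613 at 23540 bp from NEBL-AS1, LTR27B 321 at 107430 bp from EOMES, MER52A 213 at 52173 bp from MED9, a Mediator subunit gene, and LTR28C 125 at 7607 bp from ALDH1B1.

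ERV1 LTR peaks lay more often in intergenic sequence than other repeat peaks did. Intergenic sequence held 752 of them or 68.1% (65.3 to 70.9%), against 54.5% (53.6 to 55.3%) of the other repeat-labelled peaks, and introns held the other 352. Internal ERV1 sequences had 70.6% (66.4 to 74.6%) in intergenic sequence and ERVK LTRs 72.4% (66.4 to 77.8%). ERVL and ERVL-MaLR LTRs had 64.8% (57.6 to 71.5%) and 59.1% (55.6 to 62.6%). A high intergenic share is therefore not particular to ERV1 LTRs. LTR10 was the most intronic of the 13 groups, with 94 of 224 (42.0%, 35.4 to 48.7%), while LTR26 had 19 of 83 (22.9%, 14.4 to 33.4%). Of the intronic peaks 34.4% were in a first intron, against 31.5% in the other repeats, within the counting error of 29.4 to 39.6%. Scores did not follow this split, with medians of 81 in introns and 78 in intergenic sequence. In the newer RefSeq annotation 133 of the 752 intergenic peaks lay inside the span of a long non-coding RNA gene and 35 inside that of a protein-coding gene.

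No ERV1 LTR peak was in the deposited promoter class, but that class and 5 others carried no repeat label at all in this table, so the 0 follows from how peaks were labelled. By the deposited distance, 2 of the 1104 peaks (0.181%, 0.0219 to 0.653%) were centred within 1 kb of a start, where 0.644% of repeat-labelled peaks and 16.8% of all peaks were. They were the LTR10F peak of ZNF562, centred 747 bp past the start, and an LTR26 peak with 498 in intron 1 of CEP72, a centrosomal protein gene (chromosome 5, 612740 to 613941), centred 1000 bp past the start. Within 5 kb there were 90 peaks, 8.15% (6.61 to 9.93%), against 8.55% of repeat-labelled peaks and 26.3% of all peaks. The share was near the background of repeats. Of these 90, 61 were upstream and 29 downstream of the start, 72 belonged to protein-coding genes and 14 were in the top-scoring set. The same counts were not made for other repeat-labelled peaks within 5 kb, so no difference is read from them.

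Among the 13 groups with 20 or more peaks, LTR19 had the largest share near a start. It had 11 of 42 peaks within 5 kb (26.2%, 13.9 to 42.0%), against 79 of 1062 in the other groups (7.44%, 5.93 to 9.18%), and 8 of the 11 were upstream. Their scores were modest, from 27 to 285. LTR19A peaks lay 2112 bp upstream of IFT27, an intraflagellar transport gene, with 191, and 1652 bp upstream of AKAP11, which anchors protein kinase A, with 166. LTR2 and LTR4 had no peak within 5 kb, among 27 (0 to 12.8%) and 24 (0 to 14.2%). Both intervals include the 8.15% of all ERV1 LTR peaks, so no difference is shown. LTR19 was singled out after its values were seen.

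**Figure D4:**
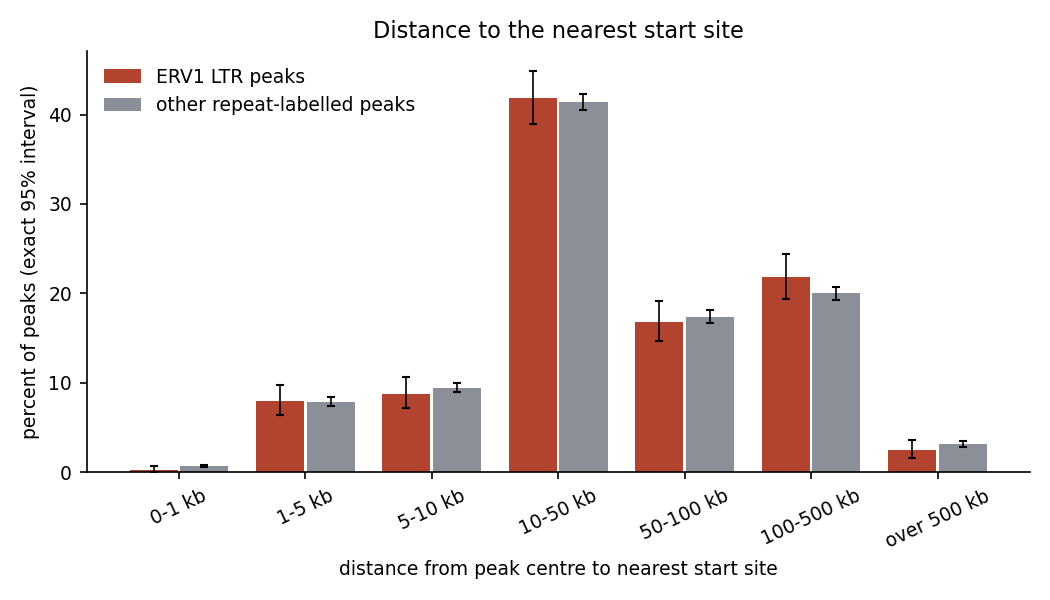
Percent of ERV1 LTR peaks (red) and of other repeat-labelled peaks (grey) by distance from the peak centre to the nearest start site, with exact 95% intervals. Both have their largest class at 10-50 kb, with 41.9% and 41.4%, and 0.181% and 0.685% within 1 kb.

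Beyond 50 kb the share was 41.1% (38.2 to 44.1%), against 40.6% in the other repeats, and the median distance was 37318.5 bp against 36504 bp. LTR10 had 29.9% (24.0 to 36.4%) of its peaks beyond 50 kb, and LOR1 had 54.9% (45.2 to 64.2%). More ERV1 LTR peaks were upstream of the nearest start than in the other repeats, 53.8% (50.8 to 56.8%) against 44.9% (44.0 to 45.8%), and LTR12 was low with 34.9% (24.8 to 46.2%). Internal ERV1 sequences and ERVK LTRs had similar upstream shares, 55.2% (50.7 to 59.6%) and 53.6% (47.2 to 59.9%). ERVL and ERVL-MaLR LTRs had 44.0% (36.9 to 51.3%) and 48.8% (45.2 to 52.3%). Intronic peaks often count as downstream, and ERV1 LTRs had fewer of them; the part of this in the upstream share was not tested.

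Some LTR peaks had a neighbour in the internal part of a provirus. Within 10 kb, 20 of the 1104 (1.81%, 1.11 to 2.78%) had an ERV1 internal peak. The share of other peaks with such a neighbour was not counted, so 1.81% cannot be called low or high. In 15 of these 20 the internal sequence was that of the same retroviral family, a pairing listed after the names were seen. HERVH internal peaks lay beside 5 LTR7 peaks, HERVIP10 peaks beside 4 LTR10 peaks, HERV3 beside 2 LTR4 peaks, and HERVE beside 1 LTR2 peak. None of the 198 LTR8 peaks had an ERV1 internal peak within 10 kb (0 to 1.85%). That interval includes the 1.81% of all ERV1 LTR peaks, so no difference is shown. The LTR peak had the higher score in 11 of the 20. A missing internal peak does not show a solitary LTR.

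Peaks at a pair of LTRs of 1 name occurred 21 times within 10 kb, at distances from 2222 to 9700 bp between centres with a median of 5235 bp. A pair was counted only where 1 peak was the nearest ERV1 LTR peak of the other. Such pairs were not counted in other repeats. LTR10 gave 11 of the 21 pairs and LTR4 gave 3. On chromosome 3 an LTR4 pair (128854249 to 128854842 and 128859088 to 128860472) had scores of 368 and 947 and a HERV3 internal peak of 41 between them. On chromosome 5 an LTR7C pair beside LINC01846 (98434254 to 98434785 and 98440745 to 98441601) had 196 and 156 with a HERVH internal peak of 30 between. In both cases the LTRs scored above the internal part. The 2 scores of a pair could also lie far apart, as in an LTR10E pair on chromosome 1 with 655 and 45. Other pairs were close, such as the LTR10B1 pair beside SEC14L1 with 358 and 484 and the LTR12C pair in SPIRE1 with 159 and 136. Peaks within 5 kb of each other, merged to 1, gave 1074 loci.

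Nearest genes were spread widely. The 1104 peaks named 989 different genes, of which 886 had 1 peak and 9 had 3 or more. TRIM24, which encodes a bromodomain cofactor of nuclear receptors, had 5, and these were all of its peaks in the list. They were an LTR26 with 61, an LTR8B with 285, an LTR10B with 244, an LTR76 with 610 and an LTR4 with 147, of which the last 2 lay in the gene, on chromosome 7 at 138527578 to 138528162 and 138556920 to 138557601. TRIM33, a relative of TRIM24, had 3 of its 5 peaks in ERV1 LTRs, an LTR2 with 1018 and, in introns, an LTR8B with 178 and an LTR10F with 153. TXNRD1, the cytosolic thioredoxin reductase gene, had 3 of 9, with 531 at an LTR10B1. These genes were picked by their number of peaks, after the values were seen.

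Non-coding RNA genes were the nearest gene of 31.5% (28.8 to 34.4%) of the ERV1 LTR peaks, against 26.9% (26.1 to 27.7%) of the other repeat-labelled peaks. Protein-coding genes had 64.0% (61.1 to 66.9%) and 68.6% (67.8 to 69.4%). MER52 had the highest share of protein-coding genes among the 13 groups with 86.0% (74.2 to 93.7%), and LTR4 the lowest with 12 of 24 (29.1 to 70.9%). The LTR4 interval includes the 64.0% of all ERV1 LTR peaks.

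Short lists of genes took small shares of the ERV1 LTR peaks and of all other peaks. Over all peaks, the nearest genes included 42 of 88 ribosomal protein, 10 of 20 p53 and senescence and 17 of 27 mTOR pathway genes. Genes with names of cytosolic ribosomal proteins were nearest to 2 ERV1 LTR peaks, 0.181% of them, against 0.295% of all other peaks, and these counts are too small to show a difference. The 2 were RPS23, with an LTR2B of score 80 at 10606 bp, and RPL29, with an LTR12C of 29 at 4867 bp. The 20 p53 and senescence arrest genes and the 27 mTOR pathway genes were nearest to 0 ERV1 LTR peaks, against 0.167% and 0.123% of all other peaks, again too few to show a difference. ZNF genes, which encode zinc finger proteins, were nearest to 25 or 2.26% of the ERV1 LTR peaks, against 2.82% of all other peaks. The highest were those of ZNF341, ZNF562 and ZNF700 with 1544, 823 and 821, followed by ZNF541 with 587 and ZNF792 with 248. The ZNF700 peak was an LTR2 in intron 1.

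Of 26 genes with a known ERV1 LTR promoter or enhancer, drawn up from the literature, 1 was nearest to an ERV1 LTR peak. This was 1 of the 21 peaks of these genes, and the list had 0.0906% of the ERV1 LTR peaks, against 0.0983% of all other peaks, so the share was near the background. The gene was GBP2, an interferon-induced GTPase gene, with an LTR12C peak of 51 at 2326 bp upstream (chromosome 1, 89128278 to 89128602). Among the small groups, MER41 had 7 peaks with a median of 37, and the highest, a MER41B with 448, was assigned to CD14, the lipopolysaccharide co-receptor gene, 4853 bp past the start. MER61, another LTR with p53 elements, had 15 peaks with a median of 45 and 2 in the top-scoring set. MDA-MB-231 carries a mutant p53, and whether p53 bears on any of these peaks was not tested.

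Chromosomes differed in the share of their peaks that lay in ERV1 LTRs. Chromosomes 13 and 18 had the highest shares, 10.0% (6.80 to 14.0%) of 290 peaks and 9.89% (7.28 to 13.0%) of 445. Chromosome 19 had the lowest, 1.85% (1.28 to 2.57%) of 1841. Counted over repeat-labelled peaks only, the shares were 12.7% (8.69 to 17.8%) on chromosome 13, 13.2% (9.74 to 17.3%) on chromosome 18 and 4.98% (3.47 to 6.89%) on chromosome 19. Chromosome 20 then had the lowest share, 4.19% (2.41 to 6.71%), and its interval overlapped that of chromosome 19. The X chromosome had 13 ERV1 LTR peaks among 143. LTR10 or LTR8 was the commonest group, alone or tied, on 21 of the 23 chromosomes.

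**Figure D5:**
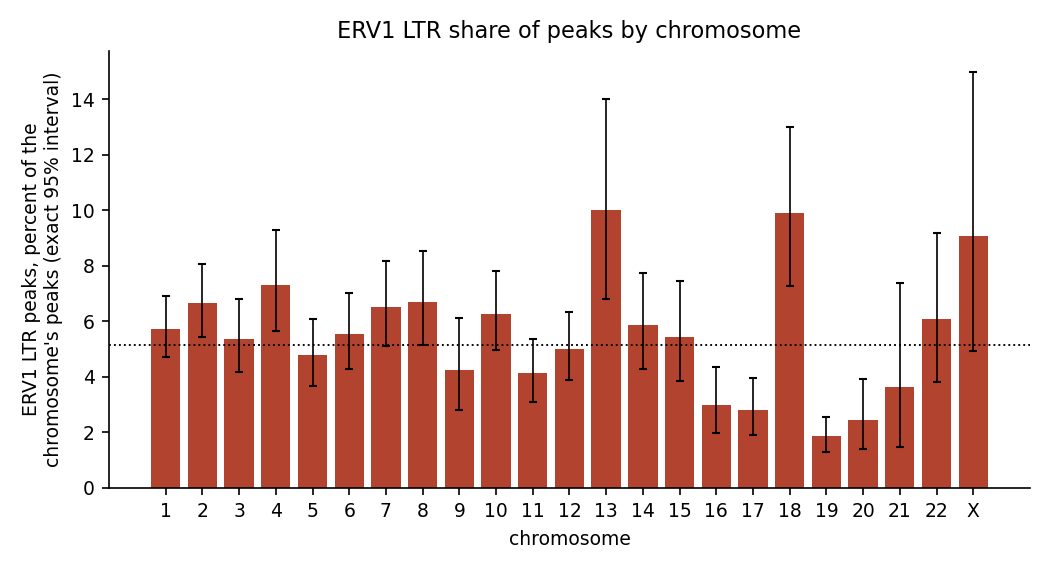
ERV1 LTR peaks as a percent of all peaks of each chromosome, with exact 95% intervals; the dotted line is the 5.15% of the whole list. Chromosomes 13 and 18 reach 10.0% and 9.89%, and chromosome 19 has 1.85%.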

How the data were processed

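An annotated peak list of 1 mTOR ChIP-seq library was analysed. Per the submitters' processing notes, the build was hg38 and the tools were MACS2 2.1.1.20160309, BWA 0.7.12, HOMER 4.11.1, Trimmomatic 0.36 and Picard 2.0.1, with no settings. The sources used here state neither the peak threshold nor how duplicates and multi-mapping reads were handled, which could change peaks over young repeats. The score and the distance to the nearest start are used as deposited by the authors. Repeat labels are those of the peak centre, per the file headers. Peaks of 1 library were called once, so replicates cannot be compared and depth is unknown.

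Shares have exact Clopper-Pearson 95% intervals and medians have binomial order-statistic intervals, tested on simulated data. No test between sets was made. Ties in score were broken in file order. Members, lists and comparisons were chosen with earlier results of these data known. Named peaks are the 15 highest, the best of each group with 20 or more, those within 1 kb of a start in place of the empty promoter class, and up to 5 for each of 5 gene lists. Peaks named outside this rule were chosen after their values were seen. Of 1103 nearest-gene identifiers 1101 were in the RefSeq table. Promoter sequences are from RefSeq, GRCh38.p14. Sequences under the other peaks need a genome, which was not used here. Analyses used scipy 1.17.1, numpy 2.4.6, matplotlib 3.10.9 and pandas 2.3.3 under Python 3.11.15.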

Additional observations from a re-analysis of the deposited data

How the results depend on the processing

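The ERV1 LTR share of peaks, 5.15%, was 6.65% in the higher-scoring 10720 peaks, 10.5% in the top-scoring 2144, 5.46% without chromosome 19, 7.50% with internal sequences counted and 6.33% of intron and intergenic peaks, the last chosen after seeing the data. The share of ERV1 LTR peaks in the top-scoring set, 20.4%, was 17.6% without LTR2, LTR4 and LTR76, also chosen after seeing the data. It was 39.0% for the top-scoring 5360 peaks, a set that holds more of the 21440 peaks by construction. Among peaks no wider than the median of all peaks it was 0.232%. Narrow peaks of other repeats were also seldom in the top-scoring set, with 13 of 6518 at widths of at most 383 bp. The median score of the narrow ERV1 LTR peaks was 49.0, against 78.0 for all ERV1 LTR peaks. A distance of 5 kb in place of the promoter class gave 8.15% for 0. The leading name held 8.97%, against 20.3% for the leading group. Internal neighbours were 1.09% within 5 kb and 3.35% within 20 kb, against 1.81%. The median width was 550 bp in the higher-scoring 10720. The remaining alternatives, among them merged peaks, LTR10 left out and tied scores left out, stayed within the counting intervals. No paired analysis was possible because there was 1 ChIP library. Depth is unknown.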
